A study of Mus musculus with 12 samples.

Results

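Open chromatin was described at 9 genes that T cell receptor signals act through or switch on, Nfatc1, Nfatc2, Nfatc3, Nr4a1, Nr4a2, Nr4a3, Egr1, Egr2 and Egr3. The members were all regions of the ATAC-seq table that overlapped the body of one of these genes extended by 20 kb on each side in the mm9 annotation, which gave 140 of 118680 regions and no region shared by a pair of the genes. Nfatc1 held 43 of them, Nfatc2 24, Nfatc3 16, Nr4a1 11, Nr4a2 7, Nr4a3 13, Egr1 9, Egr2 6 and Egr3 11. Accessibility was measured in 12 libraries of YFP+ regulatory T cells (Treg) sorted from mouse spleen, 3 libraries in each of 4 groups. Ikzf1-cko Treg came from Ikzf1-fl-Foxp3-YFP-Cre mice on a B6 background, in which the Cre that is expressed with Foxp3 deletes a floxed Ikzf1 allele in Treg only, and WT Treg came from Foxp3-YFP-Cre mice, which carry the same Cre reporter. Ex vivo Treg were left unstimulated, and stimulated Treg were kept for 4 hr on plates coated with antibodies to CD3 and CD28. Per the methods the sorted Treg were split between the unstimulated and the stimulated condition. Which libraries shared a sort is not stated, and the tests treated the libraries as independent. The ages of these mice and whether replicates were separate mice are not given in the sources used here, so the p-values measure the spread between these libraries.

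NFAT proteins are latent transcription factors that enter the nucleus when calcium activates the phosphatase calcineurin, and in T cells they bind DNA alone, with AP-1 or, in Treg, with Foxp3. Nr4a1, Nr4a2 and Nr4a3 encode orphan nuclear receptors, and Egr1, Egr2 and Egr3 encode zinc finger factors. Both families are immediate early genes that are transcribed soon after the T cell receptor is engaged, and Nr4a factors are known to promote Foxp3 expression. Ikaros, the product of Ikzf1, is a zinc finger factor that binds GGGAA cores.

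Sequences are shown for 4 regions away from start sites that differed between groups, and for the stretches before the starts of the Nr4a genes. They are mm9 sequences on the strand of the gene. Capitals mark GGAAA, the core of NFAT sites, GGGAA, the core of Ikaros sites, or TGACTCA, the AP-1 site, on either strand, and GGGAA overlaps GGAAA wherever the letters GGGAAA stand. For each region the central 200 bases are given. The Nfatc2 intron region (chr2:168317452-168317651, minus strand) was higher in Ikzf1-cko than in WT Treg ex vivo. The Nr4a2 intron region (chr2:56969183-56969382, minus strand) was higher in Ikzf1-cko Treg in both conditions. The Nr4a3 intron region (chr4:48065806-48066005, plus strand) and the region past the end of Nr4a3 (chr4:48115108-48115307, plus strand) were highest in stimulated WT Treg. The 250 bases before the annotated starts of Nr4a1 (chr15:101097027-101097276, plus strand), Nr4a2 (chr2:56976415-56976664, minus strand) and Nr4a3 (chr4:48057775-48058024, plus strand) lie within the regions over these starts.
Nfatc2 intron: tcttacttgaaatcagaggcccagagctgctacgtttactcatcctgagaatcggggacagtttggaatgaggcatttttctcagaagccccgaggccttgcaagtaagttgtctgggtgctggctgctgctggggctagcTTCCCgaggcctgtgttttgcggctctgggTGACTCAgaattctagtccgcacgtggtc
Nr4a2 intron: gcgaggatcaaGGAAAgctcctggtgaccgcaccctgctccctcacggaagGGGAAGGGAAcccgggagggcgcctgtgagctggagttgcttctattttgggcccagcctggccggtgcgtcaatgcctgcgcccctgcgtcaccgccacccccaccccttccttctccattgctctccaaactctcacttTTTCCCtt
Nr4a3 intron: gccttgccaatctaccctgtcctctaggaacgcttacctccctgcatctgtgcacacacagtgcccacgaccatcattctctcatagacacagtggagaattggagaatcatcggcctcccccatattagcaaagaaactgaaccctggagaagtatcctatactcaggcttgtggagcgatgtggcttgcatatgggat
Nr4a3 downstream: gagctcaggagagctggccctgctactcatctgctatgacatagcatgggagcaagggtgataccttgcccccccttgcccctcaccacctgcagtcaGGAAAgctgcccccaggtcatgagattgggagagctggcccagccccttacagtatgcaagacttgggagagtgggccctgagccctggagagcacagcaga
Nr4a1 before the start: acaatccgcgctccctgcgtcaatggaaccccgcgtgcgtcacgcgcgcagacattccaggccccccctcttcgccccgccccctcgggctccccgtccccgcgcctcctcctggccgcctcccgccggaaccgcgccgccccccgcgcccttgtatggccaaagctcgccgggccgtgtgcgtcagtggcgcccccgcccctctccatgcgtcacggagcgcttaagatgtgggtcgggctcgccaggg
Nr4a2 before the start: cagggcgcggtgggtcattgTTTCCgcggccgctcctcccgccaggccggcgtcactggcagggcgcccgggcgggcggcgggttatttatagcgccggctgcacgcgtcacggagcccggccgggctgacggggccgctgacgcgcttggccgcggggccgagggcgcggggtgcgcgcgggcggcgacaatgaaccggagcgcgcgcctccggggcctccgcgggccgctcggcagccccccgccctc
Nr4a3 before the start: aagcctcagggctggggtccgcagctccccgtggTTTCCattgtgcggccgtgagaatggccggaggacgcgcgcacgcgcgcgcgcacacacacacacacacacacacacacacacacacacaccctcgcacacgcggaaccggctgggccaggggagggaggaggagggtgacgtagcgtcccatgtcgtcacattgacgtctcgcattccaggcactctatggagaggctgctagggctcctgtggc
The Nfatc2 intron stretch held 1 match to TGACTCA and 1 to GGGAA, the Nr4a2 intron stretch 3 to GGGAA and 2 to GGAAA, and the Nr4a3 downstream stretch 1 to GGAAA. None of these letters was found in the Nr4a3 intron stretch or before the start of Nr4a1, and a single GGAAA match was found before the starts of Nr4a2 and Nr4a3. Over windows of 200 bases centred on each region, GGAAA was found in 59 of 140 members (42.1%) and in 45.1% of the 118480 regions on the chromosomes of the reference, and GGGAA in 67 members (47.9%) and 44.6% of regions. TGACTCA was found in 22 members (15.7%) and in 8.65% of all regions. The Runx core TGTGGT was found in 20 members (14.3%) against 19.1%, the CArG box, bound by serum response factor, in 4 members against 0.86%, and the CRE TGACGTCA in 1 member against 0.501%. Neither the Egr site GCGTGGGCG nor the Nr4a site AAAGGTCA was found in any member window, against 0.189% and 1.34% of all regions. These are counts of letters on either strand and not of bound sites.

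The genes lie at chr2:168301910-168427157 (Nfatc2, minus strand), chr8:108582740-108654437 (Nfatc3), chr15:101097277-101105223 (Nr4a1), chr2:56959241-56976414 (Nr4a2, minus strand), chr4:48058025-48099319 (Nr4a3), chr10:66998223-67004936 (Egr2) and chr14:70477252-70479964 (Egr3), with Nfatc1 at chr18:80802944-80909810 on the minus strand and Egr1 at chr18:35020861-35024638. Of the members, 60 lay in introns, 18 overlapped an annotated exon and 62 lay in the flanks, where 14 also overlapped another gene. Levels are given as FPKM, which here is the reads of a region divided by its length in kb and by the reads on all regions of the library, scaled as usual, as deposited. Folds are log2 fold changes fitted to the read counts by edgeR, whose quasi-likelihood p-values were adjusted over all tested regions by Benjamini-Hochberg (FDR). A region passed the test at an FDR under 0.05 and was called when its absolute log2 fold change was also over 1. Of the 140 members, 107 passed the filter of 3.6 CPM in at least 3 libraries and were tested. The other 33 did not pass. Their mean FPKM was highest in stimulated WT Treg for 12, in ex vivo Ikzf1-cko Treg for 9, in stimulated Ikzf1-cko Treg for 7 and in ex vivo WT Treg for 5. An example is a region 16.5 kb past the start of Egr3, at 3.40, 5.15 and 2.47 FPKM in ex vivo WT Treg and 14.02, 12.27 and 15.43 in stimulated WT Treg.

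Library totals ran from 4808916 to 15355521 reads on the regions, and every Ikzf1-cko library was larger than the WT libraries of the same condition. The spread of reads over regions also differed: the strongest 10% of regions took 45.0% to 47.9% of the reads in stimulated WT libraries, 53.4% to 57.2% in ex vivo WT libraries and 56.8% to 60.4% in Ikzf1-cko libraries. In step with this, fold changes moved with region strength. For Ikzf1-cko against WT Treg after stimulation the median over tested regions was -1.41 among the weakest 20% of regions and 0.32 among the strongest 20%, and for stimulation in WT Treg it was 1.32 and -0.25. The part of this shift in the results was not tested for single regions, and the fold from a fit with loess offsets, which removes the trend of fold change with abundance, is given beside the fold with library totals for many of the members described. Members lean to strong regions, with 3 of the 107 among the weakest 20% of tested regions and 33 among the strongest 20%. Start sites of Treg markers were open in all groups for 5 of 6 genes (6.38 to 65.6 FPKM over the libraries, with no region at Ikzf2) and of T cell markers for 5 of 5, while none of 4 B cell genes and none of the myeloid genes Csf1r, Lyz2 and Itgam had a region over the start. The CD8 T cell genes Cd8a and Cd8b1 had one, at 1.67 to 14.7 FPKM. Cd8a means were 8.45 and 9.47 in ex vivo and stimulated WT and 3.58 and 5.81 in Ikzf1-cko Treg. Klrb1c and Gata1 also had regions, at 2.79 to 9.46. These levels overlapped those of Treg markers: in ex vivo WT Treg a Foxp3 start region had a mean of 6.70 and a Gata1 region 8.53. The sources used here do not name the floxed Ikzf1 exon, and the 2 of 31 Ikzf1 regions that overlap an exon lie within 5.90 kb of the gene start, so the deletion itself could not be checked.

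**Figure D1:**
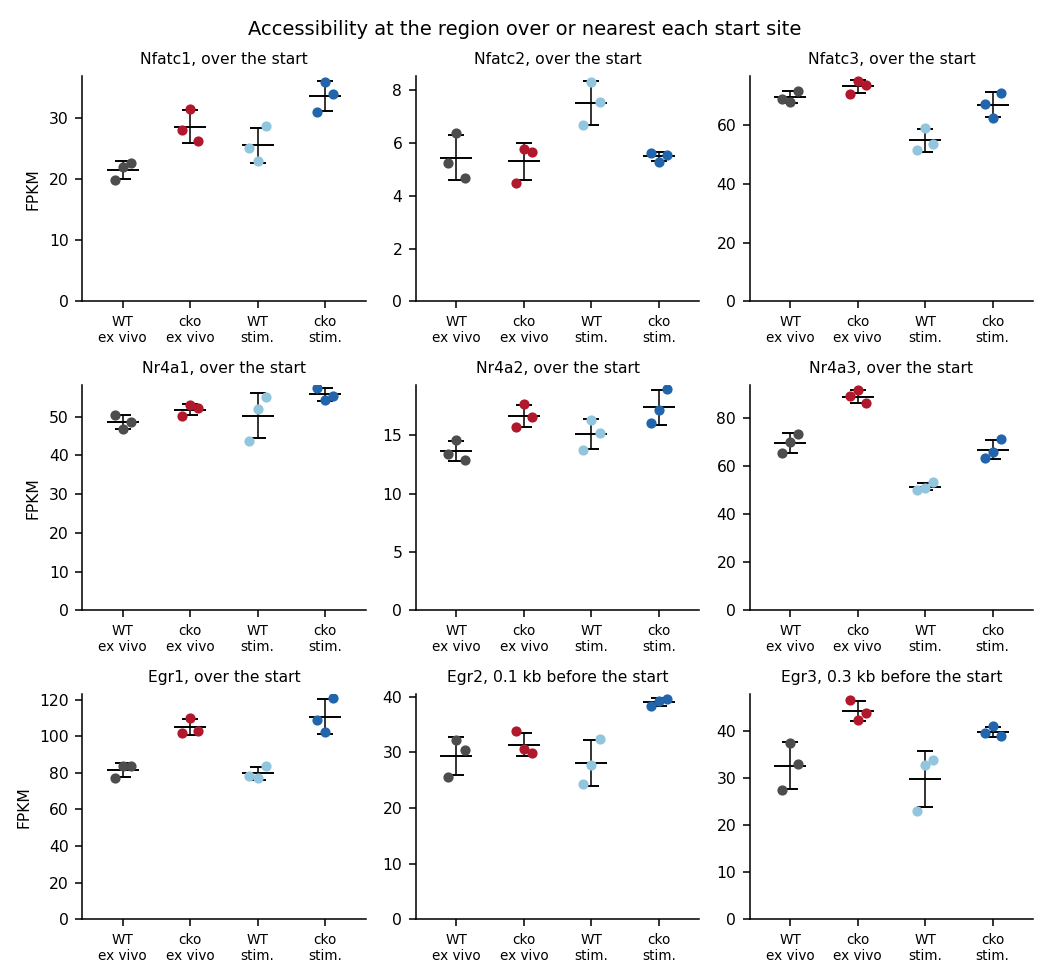
FPKM (linear axis from 0) at the region over, or for Egr2 and Egr3 nearest, the start site of each gene. Points are the 3 libraries of a group and lines the mean ± SD. The Egr1 and Nr4a3 regions were higher in Ikzf1-cko than in WT libraries in both conditions, but with loess offsets neither fold after stimulation passed. The Nr4a1 region stayed between 43.8 and 57.5 FPKM in all 12 libraries.

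Of the 9 genes, all but Egr3 had a region over an annotated start, that of Egr2 over other starts than that of its longest transcript, and the nearest Egr3 region ended 0.293 kb before its start. By mean FPKM in ex vivo WT Treg, the regions over or nearest the start were strongest at Egr1 (81.5 ± 3.84, SD, n = 3), Nr4a3 (69.6 ± 4.11), Nfatc3 (69.4 ± 1.94) and Nr4a1 (48.6 ± 1.72). Egr3 (32.6 ± 5.05), Egr2 (29.4 ± 3.42), Nfatc1 (21.4 ± 1.44), Nr4a2 (13.6 ± 0.885) and Nfatc2 (5.44 ± 0.858) followed. In this order Nr4a3 and Nfatc3 did not differ beyond their spread, and neither did Egr3 and Egr2, whereas the libraries of the other neighbours did not overlap. The start meant here is that of the longest annotated transcript, and no region lay over it at Egr2 and Egr3. The strongest Egr2 region lay 0.959 kb past it, over 3 other annotated starts (75.8 ± 1.29), and at Nfatc2 a region 10.1 kb into the gene over 6 further annotated starts was stronger than the start region (17.3, 20.1 and 16.6). A bulk library cannot tell a larger share of cells with an open region from wider opening in each cell.

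Summed over the regions of each gene, Ikzf1-cko Treg were higher than WT Treg ex vivo, without overlap of the libraries, at Nfatc1, Nr4a1, Nr4a2, Nr4a3, Egr1 and Egr3. The Nr4a3 sum was 259.7, 250.8 and 276.0 CPM (reads scaled to the library total) in ex vivo WT libraries and 323.3, 329.0 and 312.2 in ex vivo Ikzf1-cko libraries, and it was 183.1, 214.7 and 195.9 in stimulated WT and 237.8, 242.7 and 257.4 in stimulated Ikzf1-cko libraries. The Nr4a2 sum was also higher in Ikzf1-cko than in WT Treg, with means of 192.1 and 147.9 CPM ex vivo and 164.5 and 123.0 after stimulation. At Egr1 the means were 202.4 ± 9.16 in ex vivo WT, 252.9 ± 12.2 in ex vivo Ikzf1-cko, 174.4 ± 10.6 in stimulated WT and 240.9 ± 13.4 in stimulated Ikzf1-cko Treg. The Nfatc3 sums overlapped ex vivo, with means of 231.9 and 231.3 CPM. No test was run on these sums. They were scaled by library totals only, and strong regions weigh most in them. Over the strongest group of tested regions described above, the median genotype fold was 0.12 ex vivo and 0.32 after stimulation. The part of this shift in the sums was not tested. The Nr4a3 start region and the stronger one upstream of it lost their genotype folds after stimulation with loess offsets, as given below.

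The ex vivo comparison sets the genotypes side by side before any stimulus. The study reports a larger effector and a smaller naive Treg pool in Ikzf1-fl-Foxp3-YFP-Cre mice. Bulk libraries cannot tell such a difference in cell make-up from a change within cells. Of the 107 tested members, 3 were called higher in Ikzf1-cko Treg, 2 in an intron of Nfatc1 and 1 in an intron of Nfatc2, and 1 was called lower, in the last exon of Nr4a1. Over all tested regions 0.588% were called higher and 4.04% lower. By FDR alone 20 members were higher and 5 lower, 18.7% and 4.67% of those tested, against 8.78% and 12.7% of all tested regions. With library totals the 3 regions that passed at Nr4a1 were lower, the 3 at Nr4a2, 2 at Nr4a3, 3 at Egr1, 2 at Egr3 and 3 at Nfatc2 were higher, Nfatc1 had 7 higher and 1 lower, Nfatc3 1 lower and Egr2 none. The Nr4a1 count turned with the scaling, to 2 higher and 1 lower with TMM factors, 1 and 1 with DESeq2 and none and 1 with loess offsets, and no test between genes was run. At start-site regions of protein-coding genes the shares were 17.7% and 4.90%. With loess offsets the shares of start-site regions were 6.13% and 5.78% and those of the members 17.8% and 2.80%, against 7.97% and 8.11% of all tested regions. The median log2 fold change was 0.10 over the members, -0.13 over all tested regions and 0.09 over the start-site regions. Scaling moved the balance of calls: over all regions 411 were called higher and 2827 lower with library totals, 685 and 1805 with TMM factors, 614 and 1791 with DESeq2 and 825 and 781 with loess offsets. TMM scaling moved the median of all regions from -0.13 to -0.018. Among members the loess fit called 4 higher and none lower, the Nr4a1 region keeping its direction (-0.93, FDR 0.0108).

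Nfatc1 encodes the NFAT protein whose own gene activated lymphocytes switch on, and its locus held the largest fold among the members ex vivo. A region in an intron 28.2 kb into the gene (chr18:80881042-80881642) had 6.08, 7.94 and 6.19 FPKM in ex vivo WT, 23.8, 21.5 and 19.8 in ex vivo Ikzf1-cko, 7.15, 6.38 and 7.27 in stimulated WT and 9.74, 9.48 and 8.71 in stimulated Ikzf1-cko libraries. The ex vivo Ikzf1-cko libraries stood far above all others, on 139 to 220 reads each. The log2 fold change was 1.68 ± 0.16 (SE, FDR 1.17e-08) for Ikzf1-cko against WT Treg ex vivo, and it was called in all 15 alternative fits. Stimulation lowered the region in Ikzf1-cko Treg (-1.23 ± 0.14, FDR 1.59e-07), and its fold in WT Treg was 0.03 (FDR 0.925, loess 0.08). The difference of these responses, the interaction of genotype and stimulation, was -1.26 ± 0.27 (FDR 0.00386, loess -1.28) and was called in all 20 alternative fits. After stimulation the genotypes differed by 0.42 ± 0.20, which did not pass (FDR 0.0811, loess 0.50 and FDR 0.0611).

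Its neighbour 29.8 kb into the gene (chr18:80879432-80880045) moved in the same way ex vivo. It had 12.2, 17.5 and 14.4 FPKM in ex vivo WT and 32.1, 35.0 and 27.3 in ex vivo Ikzf1-cko libraries, and 9.43, 9.52 and 12.5 and then 15.0, 16.2 and 19.0 in the stimulated WT and Ikzf1-cko libraries. The fold was 1.08 ± 0.14 ex vivo (FDR 1.92e-06) and 0.70 ± 0.18 after stimulation (FDR 0.00191, loess 0.60). Here stimulation lowered accessibility in Ikzf1-cko Treg by 0.90 on the log2 scale (FDR 5.59e-06) and in WT Treg by 0.52 (FDR 0.0276, loess -0.33 and FDR 0.2), and the interaction did not pass (-0.39, FDR 0.318).

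The start of Nfatc1 differed less. The region over it (chr18:80909557-80910051) had 19.8, 21.9 and 22.6 FPKM in ex vivo WT and 27.9, 31.4 and 26.2 in ex vivo Ikzf1-cko libraries, without overlap, a fold of 0.40 ± 0.13 (FDR 0.0251). After stimulation the fold was again 0.40 (FDR 0.013), but 0.23 (FDR 0.202) with loess offsets. Near the other end of the gene, 103.2 kb past the start (chr18:80806370-80806642), the strongest Nfatc1 region had 64.8, 67.0 and 73.7 FPKM in ex vivo WT and 41.2, 38.8 and 31.2 in stimulated WT libraries, a fold of -0.88 (FDR 2.93e-05, loess -0.65). In Ikzf1-cko Treg its stimulation fold was -0.28 (FDR 0.0868), and the interaction of 0.60 did not pass (FDR 0.052). An intron region 81.0 kb into the gene (chr18:80828058-80828817) was called higher with stimulation in WT Treg, from 3.54, 3.49 and 1.99 to 6.75, 6.49 and 6.29 FPKM (1.15 ± 0.28, FDR 0.00146), and had a fold of 0.80 (FDR 0.0214) with loess offsets.

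**Figure D2:**
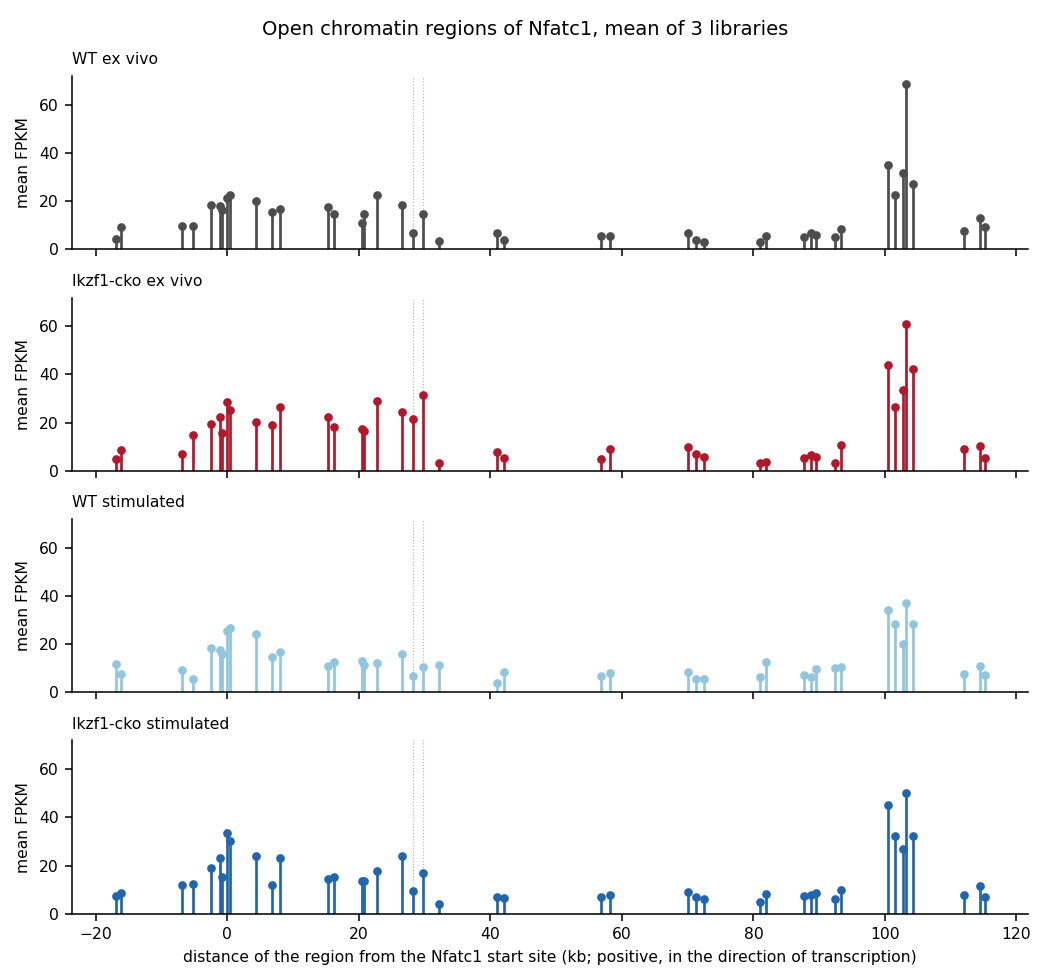
Mean FPKM of 3 libraries (linear axis from 0) for each of the 43 Nfatc1 regions against the distance of the region from the start site in kb, in 1 panel per group. Dotted lines mark the regions 28.2 and 29.8 kb into the gene, which rose to 21.7 and 31.5 FPKM in ex vivo Ikzf1-cko Treg from 6.74 and 14.7 in ex vivo WT Treg.

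Nfatc2 encodes a NFAT protein that resting T cells already hold. The intron region whose sequence is shown, 109.2 kb into the gene (chr2:168317286-168317816), had 3.26, 4.24 and 2.63 FPKM in ex vivo WT and 8.83, 7.94 and 9.50 in ex vivo Ikzf1-cko libraries, 8.72, 4.82 and 9.40 in stimulated WT and 8.58, 5.75 and 6.90 in stimulated Ikzf1-cko libraries. Ex vivo WT libraries were the low ones, on 9 to 17 reads each, and the other 3 groups overlapped. The fold was 1.37 ± 0.27 ex vivo (FDR 0.000483, loess 1.63), and with stimulation it was 1.18 ± 0.31 in WT (FDR 0.00265, loess 0.87) and -0.31 in Ikzf1-cko Treg (FDR 0.317). The interaction was -1.48 ± 0.38 (FDR 0.0147, loess -1.30 and FDR 0.0412). It was called in 15 of 19 alternative fits, with FDR from 0.00406 to 0.0738. The call was lost with DESeq2 (FDR 0.0553), without the third ex vivo WT library, and without the first or the third stimulated WT library.

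With library totals 3 of the 15 tested Nfatc2 regions rose and 3 fell by FDR with stimulation in WT Treg, 20% each. Over all tested regions 26.9% rose and 20.7% fell, so these counts do not stand out. In Ikzf1-cko Treg none rose and 5 fell (33.3%), against 12% and 11.5% of all tested regions. Among those that fell in both, a region 25.8 kb into the gene (chr2:168400337-168401201) had 33.6, 34.5 and 36.2 FPKM in ex vivo WT and 20.3, 19.6 and 17.8 in stimulated WT libraries, and 37.1, 37.2 and 29.1 and then 19.7, 21.3 and 20.8 in Ikzf1-cko libraries. Ex vivo and stimulated libraries did not overlap in either genotype. The folds were -0.85 ± 0.12 in WT (FDR 2.16e-06, loess -0.61) and -0.75 ± 0.10 in Ikzf1-cko Treg (FDR 2.2e-06), with genotype folds of -0.01 and 0.09 that did not pass. After stimulation the smallest p for genotype at Nfatc2 was that of a region 23.8 kb into the gene, at 14.1, 18.3 and 20.9 FPKM in WT and 10.2, 13.5 and 9.78 in Ikzf1-cko libraries (-0.66, FDR 0.0135), and with loess offsets it did not pass (-0.47, FDR 0.113).

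Nfatc3 changed little with genotype. The region over its start (chr8:108582501-108584043) had 69.0, 67.7 and 71.5 FPKM in ex vivo WT and 70.6, 75.1 and 73.6 in ex vivo Ikzf1-cko libraries, which overlapped, and the fold was 0.07 (FDR 0.437). Stimulated WT libraries had 51.6, 59.1 and 53.5 and stimulated Ikzf1-cko libraries 67.2, 62.4 and 70.9, a genotype fold of 0.29 ± 0.07 (FDR 0.00111) that turned to -0.12 (FDR 0.141) with loess offsets. The member of this locus with the smallest p ex vivo was a downstream region over the neighbouring gene Esrp2 (chr8:108658650-108659209), at 10.7, 6.62 and 7.89 FPKM in WT and 4.30, 3.24 and 4.88 in Ikzf1-cko libraries (-0.99 ± 0.24, FDR 0.00346). It rose with stimulation in Ikzf1-cko Treg, to 6.78, 6.54 and 6.70 FPKM (0.69, FDR 0.0286). With stimulation of WT Treg the start region had the smallest p (-0.34, FDR 0.000331), and with loess offsets it did not pass (-0.06, FDR 0.515).

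**Figure D3:**
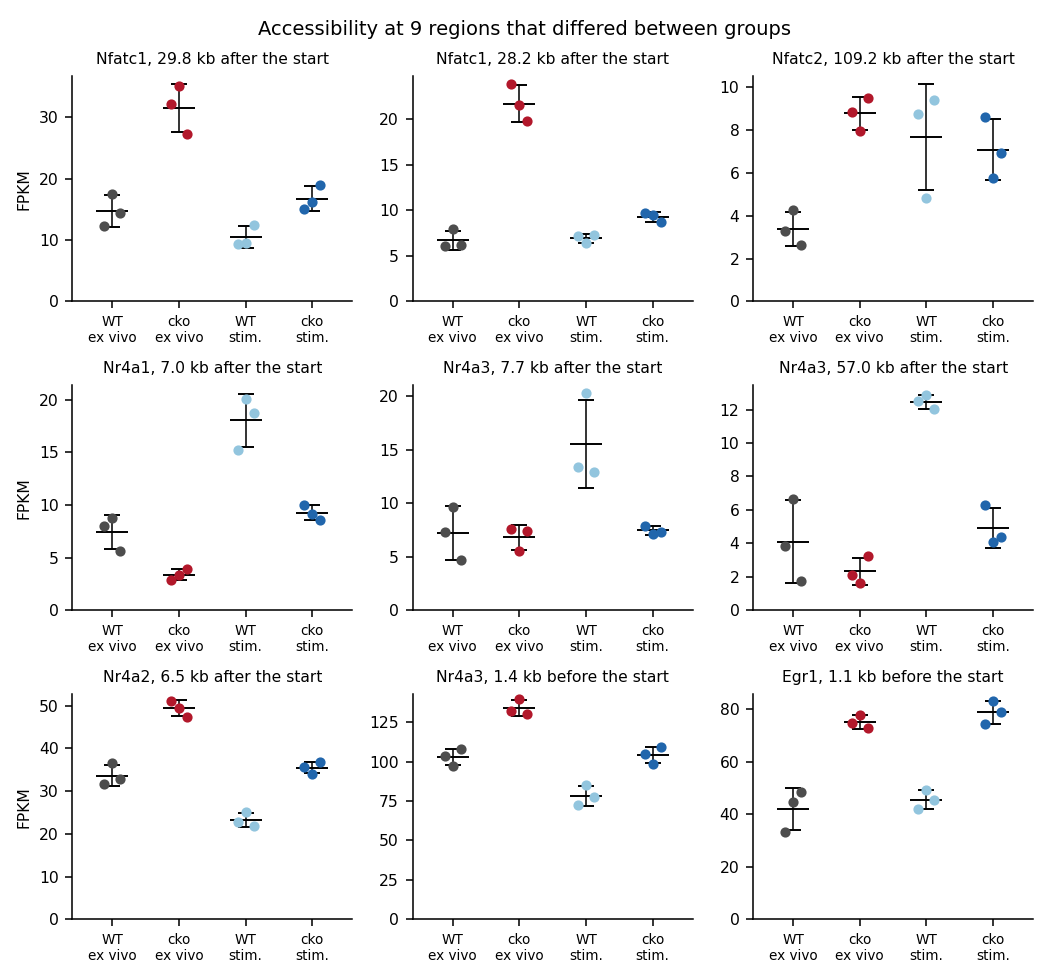
FPKM (linear axis from 0) at 9 regions chosen after their values were seen, with 3 points per group and the mean ± SD. The Nfatc regions set ex vivo Ikzf1-cko Treg apart from ex vivo WT Treg, the Nr4a1 region and the Nr4a3 regions inside and past the gene are highest in stimulated WT Treg, and the Nr4a2, Nr4a3 upstream and Egr1 regions are higher in Ikzf1-cko Treg in both conditions, although the Nr4a3 upstream fold after stimulation was -0.01 with loess offsets.

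Nr4a1 encodes the receptor also called Nur77, and its start site was not tested against those of Nr4a2 and Nr4a3. The region over the Nr4a1 start (chr15:101096622-101097738) had 50.3, 46.9 and 48.6 FPKM in ex vivo WT, 50.1, 53.1 and 52.2 in ex vivo Ikzf1-cko, 43.8, 51.8 and 55.1 in stimulated WT and 57.5, 54.3 and 55.4 in stimulated Ikzf1-cko libraries, so that all 4 groups lay close together. No comparison passed there with library totals, with folds from 0.05 to 0.15. With loess offsets the genotype fold after stimulation was -0.21 (FDR 0.0264) in place of 0.15, and the stimulation fold in WT was 0.30 (FDR 0.00286) in place of 0.05.

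At the other end of Nr4a1 the groups did differ. The region over the end of the coding sequence and the start of the 3' UTR in exon 7 of 7 (chr15:101104252-101104706) had 8.03, 8.74 and 5.62 FPKM in ex vivo WT, 2.86, 3.35 and 3.95 in ex vivo Ikzf1-cko, 15.3, 20.1 and 18.7 in stimulated WT and 10.0, 9.17 and 8.63 in stimulated Ikzf1-cko libraries. WT libraries were above Ikzf1-cko libraries in each condition, and stimulated above ex vivo libraries in each genotype. Stimulation raised it by 1.28 ± 0.23 in WT (FDR 6.05e-05, loess 1.11) and by 1.46 ± 0.24 in Ikzf1-cko Treg (FDR 3.53e-05), with no interaction past the threshold (0.17, FDR 0.789). Ikzf1-cko Treg were lower by -1.13 ± 0.26 ex vivo (FDR 0.00261) and -0.96 ± 0.21 after stimulation (FDR 0.000424, loess -0.65). The adjoining region in the 3' UTR, at 10.9, 15.1 and 10.9 FPKM in ex vivo WT and 6.75, 7.29 and 8.29 in ex vivo Ikzf1-cko libraries, was lower by -0.74 (FDR 0.0283, and 0.121 with loess offsets).

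A region 10.4 kb upstream of Nr4a1 (chr15:101086531-101086900) had the same order at smaller size. It rose with stimulation from 16.6, 17.2 and 15.7 to 21.9, 34.1 and 23.0 FPKM in WT (0.67, FDR 0.00449, loess 0.75) and from 11.3, 11.8 and 12.9 to 15.5, 18.7 and 20.3 in Ikzf1-cko libraries (0.61, FDR 0.01). After stimulation it was lower in Ikzf1-cko than in WT Treg (-0.53, FDR 0.014, loess -0.47).

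Inside Nr4a2 accessibility was higher in Ikzf1-cko Treg in both conditions. The intron region whose sequence is shown, 6.55 kb into the gene (chr2:56968696-56969868), had 31.7, 36.5 and 32.8 FPKM in ex vivo WT, 51.2, 49.6 and 47.4 in ex vivo Ikzf1-cko, 22.8, 25.1 and 21.8 in stimulated WT and 35.6, 34.1 and 36.8 in stimulated Ikzf1-cko libraries. The genotypes did not overlap in either condition. Genotype folds were 0.55 ± 0.08 ex vivo (FDR 9.06e-06, loess 0.43) and 0.61 ± 0.09 after stimulation (FDR 5.34e-06, loess 0.27 and FDR 0.0188). Stimulation folds were -0.54 in WT (FDR 5.78e-05, loess -0.30) and -0.48 in Ikzf1-cko Treg (FDR 2.44e-05). A second region, 8.54 kb into the gene, had 40.5, 40.5 and 41.7 FPKM in ex vivo WT, 54.9, 54.9 and 49.3 in ex vivo Ikzf1-cko, 29.5, 31.3 and 32.3 in stimulated WT and 47.6, 43.0 and 49.2 in stimulated Ikzf1-cko libraries, with genotype folds of 0.37 (FDR 0.000487) and 0.59 (FDR 1.52e-06, loess 0.22). The region over the start (chr2:56975487-56977127) had 13.4, 14.6 and 12.9 FPKM in ex vivo WT and 15.7, 17.6 and 16.6 in ex vivo Ikzf1-cko libraries, a fold of 0.29 (FDR 0.0397) that did not pass with loess offsets (0.20, FDR 0.135).

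Nr4a3 had the strongest start site of the Nr4a genes, and away from the start its regions went both ways with stimulation. The region over the start (chr4:48057571-48058463) had 65.3, 70.0 and 73.5 FPKM in ex vivo WT, 89.0, 91.5 and 86.1 in ex vivo Ikzf1-cko, 50.2, 50.9 and 53.3 in stimulated WT and 63.4, 65.9 and 71.3 in stimulated Ikzf1-cko libraries. It was thus higher in Ikzf1-cko Treg ex vivo (0.35 ± 0.07, FDR 0.000763, loess 0.20 and FDR 0.0155) and fell with stimulation in WT (-0.44, FDR 8.19e-05, loess -0.18) and Ikzf1-cko Treg (-0.41, FDR 5.57e-05). The genotype fold after stimulation was 0.38 (FDR 0.000249) with library totals and 0.01 (FDR 0.964) with loess offsets. A stronger region 1.39 kb upstream behaved alike, with means of 102.8 and 133.8 FPKM ex vivo and 78.2 and 104.0 after stimulation, and with genotype folds of 0.38 (FDR 0.000101) and 0.41 (FDR 2.4e-05, but -0.01 with loess offsets).

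Another region that fell lay in an intron 29.4 kb past the start (chr4:48087424-48088161), at 43.5, 33.9 and 45.2 FPKM in ex vivo WT, 45.3, 41.8 and 40.8 in ex vivo Ikzf1-cko, 22.9, 23.8 and 21.4 in stimulated WT and 24.8, 33.2 and 30.4 in stimulated Ikzf1-cko libraries. All stimulated libraries were below all ex vivo libraries, with folds of -0.84 ± 0.13 in WT (FDR 6.85e-06, loess -0.61) and -0.53 ± 0.10 in Ikzf1-cko Treg (FDR 0.000367). A weaker region 41.5 kb past the start fell in both as well, from 8.25, 6.63 and 7.67 to 3.42, 3.92 and 5.78 FPKM in WT (-0.79, FDR 0.00143, loess -0.68) and from 8.38, 6.93 and 6.99 to 5.34, 5.09 and 5.33 in Ikzf1-cko libraries (-0.50, FDR 0.0151).

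The intron region of Nr4a3 7.70 kb past the start (chr4:48065721-48066090) had 7.28, 9.67 and 4.72 FPKM in ex vivo WT, 7.57, 5.50 and 7.39 in ex vivo Ikzf1-cko, 13.4, 20.2 and 12.9 in stimulated WT and 7.91, 7.15 and 7.31 in stimulated Ikzf1-cko libraries. Only the stimulated WT libraries stood apart. They were also the only ones to reach 3.6 CPM, so the region was tested only through the group where it was high. The stimulation fold in WT was 1.12 ± 0.29 (FDR 0.00243, loess 0.73) and the genotype fold after stimulation -1.06 ± 0.28 (FDR 0.00192, loess -0.52 and FDR 0.125), while the interaction did not pass (-0.99, FDR 0.121). Past the end of the gene, 57.0 kb from the start, a weak region (chr4:48115009-48115405) had 3.88, 6.67 and 1.76 FPKM in ex vivo WT, 2.13, 1.65 and 3.23 in ex vivo Ikzf1-cko, 12.50, 12.89 and 12.05 in stimulated WT and 6.28, 4.10 and 4.39 in stimulated Ikzf1-cko libraries, on 6 to 30 reads each. This region too passed the CPM filter in stimulated WT libraries alone. Its stimulation fold in WT, 1.61 ± 0.42 (FDR 0.00232), was 0.20 (FDR 0.672) with loess offsets, and its genotype fold after stimulation, -1.34 ± 0.39 (FDR 0.00491), turned to 0.17 (FDR 0.693).

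**Figure D4:**
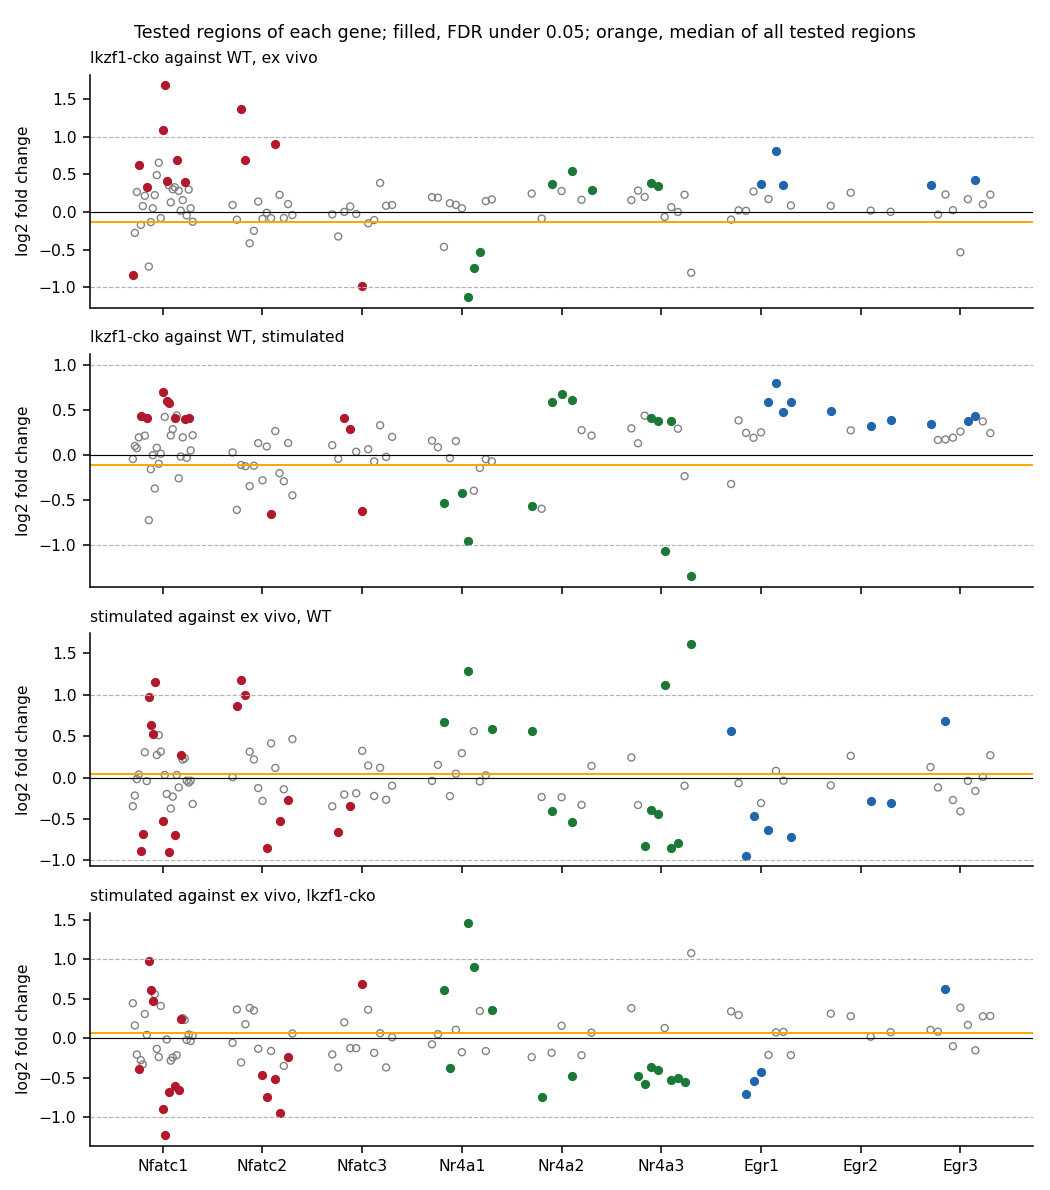
Log2 fold change (library totals) of the 107 tested members by gene in the 4 comparisons, with filled points for an FDR under 0.05, dashed lines at 1 and -1 and an orange line at the median of all tested regions. Filled points beyond the dashed lines number 3 above and 1 below for genotype ex vivo, none and 2 for genotype after stimulation, 5 and none for stimulation in WT and 1 and 1 for stimulation in Ikzf1-cko Treg.

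Egr1 was more accessible near its start in Ikzf1-cko Treg in both conditions, though after stimulation the start region fold was lost with loess offsets. The region 1.08 kb upstream of its start (chr18:35019437-35019778) had 33.2, 44.5 and 48.6 FPKM in ex vivo WT, 74.6, 78.0 and 72.7 in ex vivo Ikzf1-cko, 42.1, 49.1 and 45.6 in stimulated WT and 74.5, 83.3 and 79.1 in stimulated Ikzf1-cko libraries. Every Ikzf1-cko library was above every WT library. The genotype fold was 0.80 ± 0.11 ex vivo (FDR 6.35e-06, loess 0.75) and 0.79 ± 0.12 after stimulation (FDR 5.68e-06, loess 0.54), with stimulation folds of 0.08 (loess 0.32 and FDR 0.0554) and 0.07 that did not pass. The region over the start had 77.1, 83.8 and 83.7 FPKM in ex vivo WT and 102.0, 109.8 and 103.0 in ex vivo Ikzf1-cko libraries (0.36 ± 0.07, FDR 0.000364, loess 0.19 and FDR 0.0184). Its fold after stimulation was 0.48 (FDR 5.24e-06), and 0.06 (FDR 0.455) with loess offsets. A region 4.63 kb upstream (chr18:35015844-35016232) fell with stimulation in WT libraries from 82.6, 77.3 and 83.1 to 49.3, 52.6 and 55.1 FPKM (-0.63, FDR 2.74e-05, loess -0.40), and its fold in Ikzf1-cko Treg, -0.21, did not pass (FDR 0.0635). In Ikzf1-cko Treg the smallest p for stimulation was that of a region 6.39 kb upstream, which fell from 48.1, 50.2 and 37.6 to 27.7, 35.2 and 30.7 FPKM (-0.54, FDR 0.00369), and in WT libraries from 38.1, 35.6 and 39.4 to 28.3, 22.7 and 31.4 (-0.46, FDR 0.029, loess -0.27 and FDR 0.248).

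Egr2, which with Egr3 restrains T cell activation, had no member past the test ex vivo, where the smallest p was that of a region 0.455 kb past the start (0.26, FDR 0.216). Its strongest region, 0.959 kb past the start (chr10:66999290-67000697), had 74.6, 75.7 and 77.2 FPKM in ex vivo WT and 77.0, 81.7 and 71.7 in ex vivo Ikzf1-cko libraries, which overlapped, and 57.6, 68.6 and 61.4 and then 70.7, 79.8 and 82.6 in the stimulated ones. The genotype fold after stimulation was 0.32 (FDR 0.00091), and -0.09 (FDR 0.291) with loess offsets, and the stimulation fold in WT was -0.28 (FDR 0.00375), and 0.01 (FDR 0.952) with loess offsets. The region next to the start had 24.3, 27.7 and 32.4 FPKM in stimulated WT and 38.3, 39.2 and 39.6 in stimulated Ikzf1-cko libraries, a fold of 0.49 (FDR 0.0193) that was 0.52 (FDR 0.0265) with loess offsets. Its stimulation fold in Ikzf1-cko Treg, 0.31, had the smallest p at Egr2 and did not pass (FDR 0.114). For Egr3 the region ending 0.293 kb before the start (chr14:70476418-70476959) had 27.3, 37.4 and 33.1 FPKM in ex vivo WT and 46.6, 42.4 and 43.7 in ex vivo Ikzf1-cko libraries (0.42 ± 0.12, FDR 0.0102, loess 0.37), and its fold after stimulation was 0.43 (FDR 0.007, loess 0.18 and FDR 0.29). The smallest p for genotype after stimulation was that of the Egr3 region 1.46 kb upstream, at 25.2, 32.1 and 26.7 FPKM in WT and 31.7, 37.4 and 39.7 in Ikzf1-cko libraries (0.38, FDR 0.00124, loess 0.02 and FDR 0.885). With stimulation a region 15.1 kb upstream of Egr3 rose from 11.7, 10.7 and 8.25 to 18.4, 14.8 and 14.8 FPKM in WT (0.68, FDR 0.0305, loess 0.57 and FDR 0.1) and from 10.1, 13.3 and 12.1 to 15.4, 16.2 and 22.4 in Ikzf1-cko libraries (0.62, FDR 0.0225). Stimulated and ex vivo libraries did not overlap there in either genotype.

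After stimulation none of the 107 members was called higher and 2 were called lower in Ikzf1-cko Treg, both at Nr4a3, against 1.16% and 20.2% of all tested regions. Both had passed the CPM filter only in stimulated WT libraries, where they were high. By FDR alone 26 were higher and 8 lower, 24.3% and 7.48%, against 20.4% and 30.7% of all tested regions and 45.6% and 13.1% of start-site regions. The median fold was 0.17 over the members, -0.11 over all tested regions and 0.20 over the start-site regions. Over all regions 813 were called higher and 14119 lower with library totals and 1500 and 2734 with loess offsets, which called no member in either direction. By FDR alone the loess fit had 12 members higher and 9 lower, 11.2% and 8.41%, against 12.7% and 15.0% of all tested regions. Without the second stimulated WT library, 1 member was called.

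With stimulation of WT Treg 5 members were called higher and none lower, against 17.7% and 2.32% of all tested regions. By FDR alone 16 rose and 23 fell, against 26.9% and 20.7%, and the median was -0.05 over the members and 0.04 over all regions. The 5 were the Nfatc1 region 81.0 kb into the gene, the Nfatc2 region, the last exon of Nr4a1 and the 2 regions of Nr4a3. The 2 Nr4a3 regions had passed the CPM filter only in stimulated WT libraries. With loess offsets 1 member was called higher and 1 lower, and over all regions 2395 were called higher and 1844 lower in place of 12386 and 1625. Leaving out the third ex vivo WT library left 3 called members, and leaving out the third stimulated WT library gave 8.

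In Ikzf1-cko Treg stimulation called 1 member higher, the last exon of Nr4a1, and 1 lower, the Nfatc1 region 28.2 kb into the gene, against 3.02% and 0.632% of all tested regions. By FDR alone 10 rose and 24 fell, against 12% and 11.5%, with medians of -0.04 over the members and 0.06 over all regions. Of the 10 tested Nr4a3 regions 7 fell and none rose. TMM scaling called 1 member higher and 2 lower, and over all regions loess offsets called 833 higher and 646 lower in place of 2113 and 442. Leaving out the third ex vivo or the third stimulated Ikzf1-cko library gave 5 called members.

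For the interaction, the difference between the genotypes in their response to stimulation, 2 members were called, both more negative in Ikzf1-cko Treg, the Nfatc1 region 28.2 kb into the gene and the Nfatc2 region. Over all tested regions 0.579% were called with a positive and 1.4% with a negative value, and 405 and 980 regions became 397 and 470 with loess offsets. By FDR alone 1 member was positive and 2 were negative, against 5.66% and 1.82%. The positive one was a region past the end of Egr2 over the gene Ado, at means of 30.1 and 30.3 FPKM in ex vivo WT and Ikzf1-cko Treg and 24.5 and 32.0 after stimulation (0.38 ± 0.11, FDR 0.0342), and with loess offsets it did not pass (0.15, FDR 0.41). Its genotype fold after stimulation, 0.38 (FDR 0.000329), was 0.01 with loess offsets. At the other genes the interaction with the smallest p did not pass. It was 0.50 (FDR 0.0541) in Egr1 0.318 kb past the start, 0.79 (FDR 0.126) 9.16 kb upstream of Egr3, 0.40 (FDR 0.117) 4.77 kb upstream of Nfatc3, -0.47 (FDR 0.17) in Nr4a1 0.660 kb past the start, -0.81 (FDR 0.0728) past the end of Nr4a2, and at Nr4a3 that of the intron region given above. Without the third ex vivo WT library, or the first or the third stimulated WT library, 1 member was called. The comparisons share groups, so their counts are not independent of each other.

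**Figure D5:**
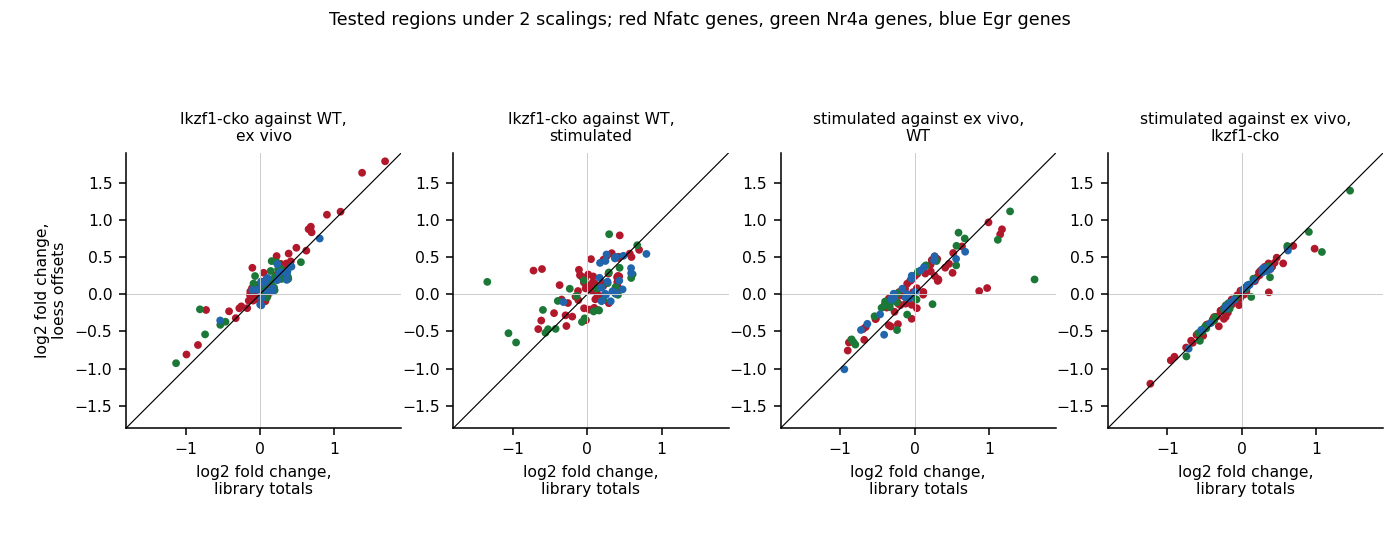
Log2 fold change of each tested member with library totals (horizontal) and with loess offsets (vertical) in the 4 comparisons, with a line of equality and red, green and blue points for the Nfatc, Nr4a and Egr genes. The scalings lie close to each other ex vivo and for stimulation in Ikzf1-cko Treg, and points leave the line where stimulated WT libraries enter, such as the Nr4a3 region at -1.34 and 0.17 for genotype after stimulation.

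Other genes around these factors were taken as 3 lists, chosen for their roles, with 38 genes that had regions. The calcineurin-NFAT pathway, with the calcineurin subunits, the calcium channel Orai1 and its sensors Stim1 and Stim2, and inhibitors such as Cabin1 and the Rcan genes, had 144 tested regions. Of these 1 was called higher and none lower ex vivo, against 0.588% and 4.04% of all tested regions. The called region lay in Stim2, with mean FPKM of 13.2 in WT and 26.3 in Ikzf1-cko Treg (1.01). Stimulation called 5 higher and 6 lower in WT, against 17.7% and 2.32% of all tested regions. In Ikzf1-cko Treg it called 2 higher and 4 lower, against 3.02% and 0.632%. Only a Stim1 intron region was called lower in both, from 29.3 to 9.01 FPKM in WT (-1.68) and from 17.6 to 7.45 in Ikzf1-cko Treg (-1.25). After stimulation 2 were called higher in Ikzf1-cko Treg and 4 lower, against 1.16% and 20.2%. In the interaction 1 region, past Ppp3r1, was called with a positive value and none with a negative one, against 0.579% and 1.4%. With loess offsets the calls were 1 higher and 8 lower for stimulation in WT, 1 and 5 in Ikzf1-cko Treg, and 7 and 1 for genotype after stimulation. Over all 69957 tested regions the loess calls were 2395 and 1844, 833 and 646, and 1500 and 2734 in these comparisons. The median genotype folds of the list were 0.04 ex vivo and 0.14 after stimulation, against 0.10 and 0.17 for the members.

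Partners of Egr and Nr4a factors, with the co-repressors Nab1 and Nab2, the receptors Rxra and Rxrb and the HMG factors Tox and Tox2, had 80 tested regions, and Tox alone held 65 regions before the filter. Ex vivo 1 was called higher, downstream of Nab1 (10.2 and 20.5 mean FPKM in WT and Ikzf1-cko Treg, 1.04), and 1 lower, in an intron of Tox (8.82 and 3.58, -1.27). The shares over all tested regions were 0.588% and 4.04%. With stimulation of WT Treg 1 was called higher and 6 lower, against 17.7% and 2.32% of all tested regions, all 6 in introns of Tox, of which the one with the highest level fell from 79.9 to 28.1 mean FPKM (-1.51). In Ikzf1-cko Treg 1 was called higher, past Tox2, and none lower, against 3.02% and 0.632%. After stimulation 3 Tox intron regions were called higher in Ikzf1-cko than in WT Treg and none lower, against 1.16% and 20.2%. With loess offsets none was called higher and 7 lower for stimulation in WT Treg, and 1 higher and none lower ex vivo. Over all 69957 tested regions the loess calls were 2395 and 1844, and 825 and 781.

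Serum response factors and other immediate early genes had 110 tested regions. Ex vivo none was called higher and 1 lower, in Elk4 (12.1 and 3.98 mean FPKM, -1.62), against 0.588% and 4.04% of all tested regions. With stimulation of WT Treg 2 were called higher, both at Ier3, and 3 lower, against 17.7% and 2.32%. In Ikzf1-cko Treg stimulation called 1 higher, in Crem, and 1 lower, past Elk3, against 3.02% and 0.632%. After stimulation 4 were called higher in Ikzf1-cko Treg, at Creb1, Crem and Ier5, and none lower, against 1.16% and 20.2%. Of these the Crem intron region had mean FPKM of 16.9 in WT and 44.1 in Ikzf1-cko Treg (1.39). With loess offsets stimulation called 2 higher and 1 lower in WT and none higher and 1 lower in Ikzf1-cko Treg. For genotype after stimulation the loess fit called 5 higher and none lower. Over all 69957 tested regions the loess calls were 2395 and 1844, 833 and 646, and 1500 and 2734 in these 3 comparisons. A Creb1 region was called in the interaction with a positive value and none with a negative one, against 0.579% and 1.4%.

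Likeness of pattern was measured as Pearson's r over the 4 group means of log2 CPM at start-site regions. The start-site regions most like those of the members named here belonged to Ei24 for Nfatc1, Wdr67 for Nfatc3, Man2a2 for Nr4a1, Pck2 for Nr4a2, Phactr2 for Nr4a3, Smcr8 for Egr1, Rps27l for Egr2 and Ctif for Egr3. With so few points a high r is common, and between 62 and 395 of the 11039 others (11040 for Egr2 and Egr3) had an r over 0.99 with the region of a given gene.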

How the data were processed

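ATAC-seq libraries were prepared from 100000 sorted Treg each and grouped by their sample labels. Per the methods, the authors used bowtie2 for alignment and MACS2 for peaks in each replicate, took out duplicate reads, and built 1 set of regions from peaks seen in 2 or more replicates. The genome printed in the methods is human, whereas the coordinates and processing notes are mm9, which was used here. For each region and library the authors deposited the raw count of reads, the FPKM made from it and its log2, which was not used. A second deposited table holds the authors' own log2 fold changes, F statistics, p-values and FDR and was not used.

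The counts were fitted with the quasi-likelihood functions of edgeR 4.0.16 under R 4.3.3 (library totals as scaling, 4 group means over all 12 libraries, 24.4 prior degrees of freedom). The filter of 3.6 CPM in 3 or more libraries left 69957 regions, called where the FDR was under 0.05 with a log2 fold change beyond 1 or -1. The standard error is the size of the fold over the root of F. The background normalization of the study needs reads outside the regions and could not be repeated. Alternatives were TMM factors, DESeq2 1.42.0, limma 3.58.1 on log2(FPKM + 1), loess offsets against mean abundance with a span of 0.3, other filters, thinning to 4808916 reads, fits on the compared libraries only, a replicate block and fits without each library. The edgeR fit with library totals and the limma fit were also run on simulated counts in which 200 regions differed by genotype ex vivo. They recovered 198 and 193 of these, with 10 and 6 false calls. The simulated libraries had no shift with region strength, so this could not check the fits for it, and the remaining fits were not simulated. Intervals of low counts are wider in WT libraries, which were smaller.

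For each gene the text names the region over or nearest the start of the longest transcript, the region with the smallest p in each comparison and called regions, and other regions, including those of highest level, were named after their values were seen. Members, gene lists and tests were chosen with earlier results of these data known. Genes and exons came from the mm9 annotation, and sequences were read from the mm9 genome, with motifs counted on both strands in Python 3.11.15. Sequences are not shown for the Nfatc1 and Egr1 loci, and the gene most like Nfatc2 in pattern is not reported here.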

Additional observations from a re-analysis of the deposited data

Results flagged for a closer look

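At 2 regions the response to stimulation differed between the genotypes by the test of the difference itself. The Nfatc1 intron region 28.2 kb into the gene had an interaction log2 fold change of -1.26 (SE 0.27, edgeR FDR 0.00386), from stimulation folds of 0.03 in WT and -1.23 in Ikzf1-cko Treg. The Nfatc2 intron region 109.2 kb into the gene had an interaction log2 fold change of -1.48 (SE 0.38, edgeR FDR 0.0147), from stimulation folds of 1.18 in WT and -0.31 in Ikzf1-cko Treg, on 9 to 17 reads in each ex vivo WT library. All 9 genes were examined in 107 tested regions.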

How the results depend on the processing

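Counts of called members moved with the filter and the scaling. With 3.6 CPM asked of all libraries, which left 34257 regions, 2 members were called for genotype ex vivo (4 in the text), none (0) for genotype after stimulation (2), none (0) for stimulation in WT (5), 1 for stimulation in Ikzf1-cko Treg (2) and 1 for the interaction (2). With no CPM filter 6 members were called for genotype after stimulation, 12 for stimulation in WT and 5 for stimulation in Ikzf1-cko Treg. FDR with no threshold on the fold gave 25, 34, 39 and 34 in the first 4 comparisons. For genotype after stimulation DESeq2, TMM and limma each gave 1 and loess offsets 0. For stimulation in WT limma gave 3 and loess offsets 2, and for the interaction DESeq2 gave 1. Leaving out 1 library at a time gave 3 to 6 called members for genotype ex vivo, 1 to 3 for genotype after stimulation, 3 to 8 for stimulation in WT, 2 to 5 for stimulation in Ikzf1-cko Treg and 1 to 3 for the interaction. Direction reversed at 3 start sites, each with loess offsets: genotype after stimulation at Nfatc3 (-0.12) and Nr4a1 (-0.21), and stimulation in WT at Egr1 (0.25). Of 715 values at start sites under alternatives, 681 stayed on the same side of the threshold, among them 43 that changed sign with neither value past it, 23 lost and 8 gained significance, and 3 reversed. Ex vivo and stimulated libraries may share sorts, but replicate numbers are not stated to mark shared sorts, mice or days. Same-numbered libraries did not deviate together throughout. Correlations of their deviations ran from -0.376 to -0.0135 for genotype ex vivo and from -0.0919 to 0.242 for genotype after stimulation. For stimulation they ran from -0.0275 to 0.211 in WT and from -0.357 to 0.0722 in Ikzf1-cko Treg. The differently numbered Ikzf1-cko libraries ex vivo 3 and stimulated 1 reached 0.425. A block on replicate number cannot test a pairing that the numbers do not mark. The replicate block gave 5, 2, 5, 2 and 2 called members in place of 4, 2, 5, 2 and 2. Low counts limit the weak regions, such as the one past Nr4a3 with 6 to 30 reads per library. The causes of these changes were not tested.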
